A study of Mus musculus with 19 samples.

Results

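The cytosolic ribosomal protein genes of mouse thymocytes were taken by name, as every RNA feature whose symbol starts with Rps or Rpl and a number, leaving out pseudogenes with "-ps" in the name and the Rps6k kinases. Of 28692 genes, 83 names matched and 81 had a unique molecular identifier (UMI, the tag that counts 1 captured RNA molecule) in at least 100 cells: 48 Rpl genes of the large subunit and 33 Rps genes of the small subunit. Rpl10l (UMIs in 3 cells) and Rpl3l (88 cells) fell below that minimum. The name takes in some genes that are not core ribosomal proteins. Rps19bp1 encodes a nucleolar protein that binds RPS19 and the deacetylase SIRT1, and Rpl7l1 encodes a relative of RPL7 linked to ribosome assembly. The name also misses 6 genes of true ribosomal proteins, among them Rpsa, Rplp0, Rplp1, Rplp2 and Fau, which were followed as a separate list.

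A cytosolic ribosome is built from ribosomal RNA and 1 copy of most of its proteins, so their genes are transcribed together and at high levels in every nucleated cell. Their mRNAs start with a C followed by an unbroken run of pyrimidines, the terminal oligopyrimidine (TOP) motif, through which mTOR signalling sets how well they are translated. In the thymus, quiescent CD4+CD8+ (double positive, DP) cells are small, and a T cell receptor (TCR) signal at positive selection starts their growth and their maturation into CD4 or CD8 single positive T cells.

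RNA and 111 surface proteins were measured in single thymocytes by CITE-seq, in which antibodies carry DNA tags that are sequenced with the 3′ ends of polyadenylated RNA. Thymi came from 17 female mice, 4 to 8 weeks old, on 19 lanes. Wild-type C57BL/6 mice (B6, 5 mice) make both lineages. CD4-fated mice were AND and OT-II, which carry transgenic TCRs specific for MHCII, and MHCI-/- (B2m-/-). CD8-fated mice were F5 and OT-I, with transgenic TCRs specific for MHCI, and MHCII-/- (H2-Ab1-/-), with 2 mice per genotype. AND and F5 mice were also Rag1-/-, so they cannot rearrange TCRs of their own, whereas OT-I and OT-II mice kept Rag1. Cells of B6 replicates 1 to 3 and of all MHC-deficient mice were enriched by a sort on CD5 and TCRβ, while the other thymi went in unsorted. All OT-I and OT-II mice and B6 replicates 4 and 5 belonged to experiment 3, run at a different site, so for wild-type mice the site, the experiment and the sort cannot be told apart. Each mouse was a separate thymus, so the p-values below measure the spread between mice.

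Lanes held 9893333 to 43303999 RNA UMIs, and 69283 of 85389 barcodes were kept, with a median of 1503 to 7221.5 RNA UMIs per cell over the lanes. Any pair of lanes shared at most 35 barcodes. B2m was at 46.5 and 48.0 CPM (counts-per-million, the UMIs of a gene scaled to the total of the same cells) in the MHCI-/- mice and between 405 and 1255 in the other mice. Rag1 was between 5.70 and 53.1 in the Rag1-/- mice, a range that also held the OT-I mice (26.8 and 52.2), and H2-Ab1 (8.91 and 8.79 in MHCII-/- mice) lay within the range of the other mice, so neither of these 3′ counts tells knockouts from the rest. Cells were assigned to stages by surface protein alone. DP1 was CD4+CD8a+CD69-CD127- (the earliest gate), and DP2 was the same with CD69+ (signalled). Semimature (CD69+CD127+) and mature (CD69-CD127+) cells were CD4 or CD8 single positive. Zbtb7b, the CD4 lineage factor, was at 83.2 CPM (median of wild-type mice) in the CD4 semimature gate and at 0.99 in the CD8 semimature gate. Rag1 was at 588 in DP1 and 41.2 in DP2 (medians of wild-type mice), but the stages were less distinct in RNA in the unsorted mice. The summed level of 8 markers of quiescent DP cells, Rag1 included, was 966 to 1047 CPM in DP2 of B6 replicates 1 to 3 and 4838 and 5417 in DP2 of replicates 4 and 5, within the wild-type DP1 range of 4365 to 8309. The antibody staining of AND replicate 2 was weak, and its DP2 gate held 1 cell. That sum and the CD8 semimature sums of both F5 mice (8 and 9 cells) fell under the minimum of 20 cells and were not used. In lineage-restricted mice single positive gates were used only for the lineage the mouse makes. This left out 11 sums with at least 20 cells in gates of the other lineage, in MHCII-/-, OT-I, AND and OT-II mice. Those sums are named by gate, and the lineage of their cells was not tested.

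The 81 genes took 23.4% of all RNA UMIs in the kept cells. A 3′ UMI counts molecules and not length, but reads shared with the many pseudogenes and near copies of these genes can be lost or split in counting, and 3 libraries described below held more of the short ribosomal protein mRNAs, so the order of genes is a description of the pooled libraries. Rps29 was the most abundant with 9372 CPM, followed by Rps24 (5622), Rpl41 (5121), Rpl39 (4999) and Rps27 (4920). Without those 3 libraries, left out after seeing the data, Rps29 was at 7563 CPM and the first 3 genes were in the same order, while Rpl39 ranked 10 and Rps27 ranked 13. The least abundant were the testis-enriched copy Rpl39l (0.5, with 180 UMIs in 108 cells), Rpl6l (19.0), Rps19bp1 (42.4), Rpl7l1 (90.3) and Rps27rt (167), a near copy of Rps27. The 16 rows of "-ps" pseudogenes together held 321 CPM. Rps4l, the testis relative of Rps4x, was not among the features.

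RefSeq start sites (build GRCm38.p6) were matched for 61 of the 81 genes, at 72 starts. The DNA 15 bases either side of the start is printed below. Capitals mark the first C, within 5 bases of the annotated start, that is followed by at least 4 pyrimidines, and the run from it. Such a run is the DNA form of the TOP motif, though it can begin before the capitals, as in Rpl14 and Rpl22l1. The first set shows such a run across the annotated start.
Rps18 (chr17:33955651-33955680, minus strand): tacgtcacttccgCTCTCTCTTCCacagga
Rps10 (chr17:27635230-27635259, minus strand): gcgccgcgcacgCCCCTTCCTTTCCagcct
Rpl14 (chr9:120571502-120571531, plus strand): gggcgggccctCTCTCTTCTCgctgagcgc

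The next set holds the Rps27 family and Rpl22l1, whose levels relative to their partners are followed below.
Rps27 (chr3:90213634-90213663, minus strand): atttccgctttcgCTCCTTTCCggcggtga
Rps27rt (chr9:114982725-114982754, minus strand): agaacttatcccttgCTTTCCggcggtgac
Rps27l (chr9:66946071-66946100, plus strand): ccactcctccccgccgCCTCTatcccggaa
Rpl22l1 (chr3:28805493-28805522, plus strand): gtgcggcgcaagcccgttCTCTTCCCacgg

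The last set holds the genes taken in by name that moved apart from the rest, and Rps19, which rose most among the core proteins toward CD4 semimature. No such run was found within 5 bases of these starts.
Rps19bp1 (chr15:80264292-80264321, minus strand): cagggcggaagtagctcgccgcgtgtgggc
Rpl7l1 (chr17:46782642-46782671, minus strand): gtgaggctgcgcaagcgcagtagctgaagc
Rps19 (chr7:24884577-24884606, plus strand): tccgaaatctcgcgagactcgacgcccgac

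A C followed by 4 pyrimidines stood exactly at the annotated start in 18.1% of the 72 starts, against 2.51% of all 32851 starts in the same annotation, and within 5 bases of it in 43.1% against 18.3%. In the 300 bases from 250 before to 50 after the start, read on both strands, CCGGAAG (the core of ETS family sites) was present in 34.7% against 8.86%, and CTCTTTCC, which can lie within a pyrimidine run, in 18.1% against 3.12%. AAGATGGC (the YY1 core) was present in 11.1% against 2.75%, and CACGTG (the E-box bound by MYC) in 11.1% against 7.15%. TATAAA was present in 8.33% against 13.6%. These are matches of letters and do not show that a factor binds.

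One group of libraries stood apart in these genes before any stage was compared. Replicate 2 of OT-I, replicate 2 of OT-II and B6 replicate 5, all of experiment 3, held more of the short ribosomal protein mRNAs and less of the long ones than the other mouse of the same genotype in that experiment. In DP1, Rps29, with a short reading frame, was at 4284, 5545, 6363 and 5499 CPM in B6 replicates 1 to 4 and at 18840 in replicate 5. Rps2, with a longer one, was at 1848, 1769, 1922, 1815 and 462 in B6 replicates 1 to 5. The 5 mice therefore agreed to within a narrow range except for replicate 5, which was the highest for Rps29 and the lowest for Rps2. Across 79 of the 80 genes tested that had a coding length, Spearman's rho between coding length and the log2 level of the later against the earlier mouse was -0.78 for B6 (replicate 5 against 4), -0.82 for OT-I and -0.86 for OT-II. In these pairs 27, 31 and 33 genes differed more than 2-fold. In the other pairs of mice of 1 genotype rho was 0.47 (MHCI-/-), 0.004 (MHCII-/-), -0.225 (AND) and -0.20 (F5), with at most 1 gene over 2-fold. These are descriptions across genes of 1 pair of libraries, and genes are not independent replicates. For the other genes above 50 CPM rho had the opposite sign, at 0.32, 0.29 and 0.20 in the B6, OT-I and OT-II pairs.

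A further 3 genes differed by experiment at every stage. The mean of B6 replicates 4 and 5 lay below that of replicates 1 to 3 by over 1 on the log2 scale in all 6 gates for Rpl15 (-2.13 to -1.78), Rpl27 (-1.80 to -1.64) and Rps27rt (-1.55 to -1.04), and no gene was higher by as much in all gates. Rpl15 in DP1 was at 1481, 1644, 1981, 714 and 194 CPM in B6 replicates 1 to 5. Lanes of experiments 1 and 2 name Cell Ranger 3.0.2 in their headers and those of experiment 3 name 3.1.0, and the part of that difference in these shifts was not tested. For 50 of the 80 genes the mean of replicates 4 and 5 lay within 0.5 of that of replicates 1 to 3 in every gate, a mean in which opposite shifts of the 2 mice can cancel. Taken singly, replicate 4 lay within 0.5 in every gate for 67 genes and replicate 5 for 20. Because of these shifts each gene was compared within mice wherever the design allowed, and the calls were also made without the 3 mice just named, an alternative chosen after seeing the data. The sum over the genes was less affected in wild-type mice: in DP1 it was 16.2% of RNA UMIs in B6 replicate 4 and 16.8% in replicate 5. In the OT mice it was higher in the later mouse. In DP1 it was 21.3 and 23.4% in OT-I replicates 1 and 2 and 19.4 and 24.2% in OT-II replicates 1 and 2.

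The question of the design is how cells change from DP to single positive stages and how CD4- and CD8-fated cells differ on the way. The share of RNA taken by the ribosomal protein genes rose at the passage from DP2 to the semimature stage in every mouse in which both gates were used (10 for CD4 and 9 for CD8), and in wild-type mice it changed little between DP1 and DP2. In DP1 it was 16.1, 16.8, 17.98, 16.2 and 16.8% in B6 replicates 1 to 5, and in DP2 it was 15.1, 16.9, 18.5, 15.3 and 15.98%. In CD4 semimature cells of the same mice it was 25.1, 26.8, 28.9, 25.4 and 26.3%, and in CD8 semimature cells 25.6, 27.9, 27.7, 27.6 and 27.4%. In wild-type mice no DP1 or DP2 value reached a semimature value. Over all sums used 1 DP value overlapped the semimature ones, the 25.6% of DP2 in OT-I replicate 2, which lay above the lowest semimature share, 24.5% in AND replicate 2. With the sums in gates of the other lineage the lowest semimature share was 23.3% (CD4 semimature, MHCII-/- replicate 2). The DP1 shares of OT-I replicate 2 (23.4%) and OT-II replicate 2 (24.2%) lay above it too. Both are mice in which short ribosomal protein mRNAs were high, as described above.

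The rise from DP2 to CD4 semimature was 9.59 ± 0.88 percentage points (SD, n = 10 mice) and was seen in 10 of 10 mice. The CD4 semimature gates of CD8-fated mice, included after seeing the data, rose less, by 6.93 and 4.36 points in MHCII-/- and by 1.86 and 1.61 in OT-I mice, and with them the rise was 7.91 ± 3.104 points (n = 14, higher in 14). From DP2 to CD8 semimature it was 9.04 ± 3.17 points (n = 9), in 9 of 9 mice, and here the mice differed. The wild-type mice rose by 10.8 ± 1.18 points (n = 5) and the MHCII-/- mice by 10.0 and 9.72, whereas the OT-I mice rose by 3.60 and 3.82 from a DP2 share that was already 23.3 and 25.6%. The DP2 gates of the OT-I mice also differed in other markers. The summed level of 5 gamma-delta T markers was 692 and 573 CPM there and 23.9 to 107 in wild-type DP2, that of 5 mature single positive markers was 575 and 771 against 130 to 299, and cycling-like cells were 10.2 and 10.6% against 0.305 to 4.08%. None of these markers was at 0 in OT-I. Among cells outside the cycling-like clusters the OT-I share was 24.5 and 26.6% in DP2 and 28.5 and 30.9% in CD8 semimature cells, and the part of the other markers was not tested. No test was made of the summed share, since the genes were chosen with earlier results known, and these values are a description.

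**Figure D1:**
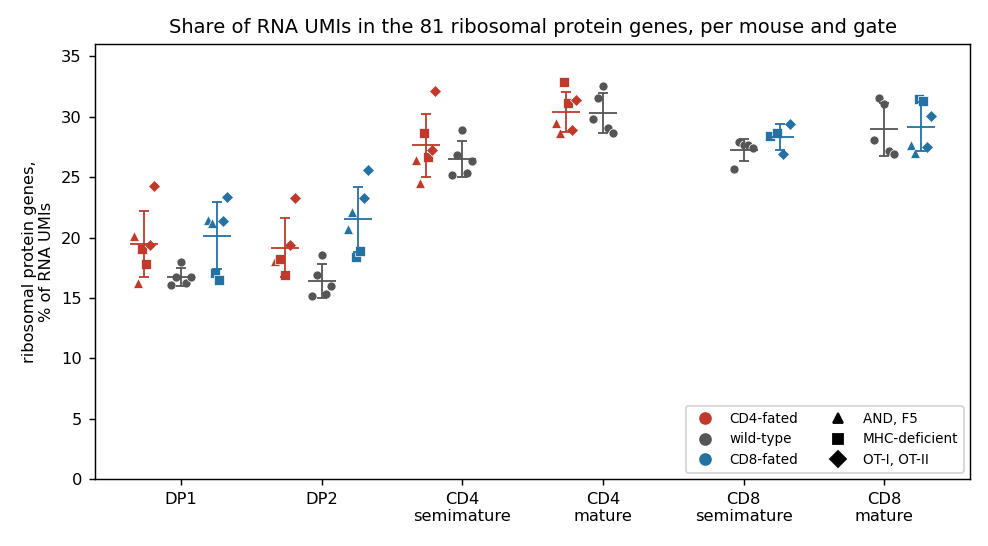
Share of RNA UMIs in the 81 cytosolic ribosomal protein genes (y axis, percent) by surface protein gate (x axis), 1 point per mouse and sum used, coloured by lineage and shaped by genotype pair, with the group mean and SD as bars. The wild-type means are 16.8% in DP1, 16.4% in DP2, 26.5% in CD4 semimature, 30.3% in CD4 mature, 27.2% in CD8 semimature and 28.9% in CD8 mature cells.

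The number of ribosomal protein UMIs per cell rose at the same passage, after a fall from DP1 to DP2 when all cells were counted. In DP1 it was 758, 698, 1040, 709 and 366 in B6 replicates 1 to 5, and DP2 cells held 0.504 to 0.99 of the DP1 number over the 16 mice with both gates. In DP2 it was 619, 606, 562, 561 and 276 in B6 replicates 1 to 5, and in CD4 semimature cells 1627, 1456, 1658, 1656 and 697. In CD8 semimature cells it was 1930, 1869, 1967, 2435 and 943. B6 replicate 5 was lowest in every gate. From DP2 to CD4 semimature the ribosomal protein UMIs per cell rose 2.40 to 2.95-fold in wild-type mice and all other UMIs 1.34 to 1.65-fold. To CD8 semimature they rose 3.08 to 4.34-fold, and all other UMIs 1.61 to 2.08-fold. With the cycling-like cells left out, chosen after seeing the data, the number per cell was higher in DP2 than DP1 in every wild-type mouse. B6 replicate 1 then held 169061 ribosomal protein UMIs in 350 DP1 cells and 86590 in 141 DP2 cells. The number per cell was still lower in DP2 in AND replicate 1, both F5 mice and OT-II replicate 2. UMIs per cell depend on capture and depth as well as on RNA content, which this assay does not separate.

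**Figure D2:**
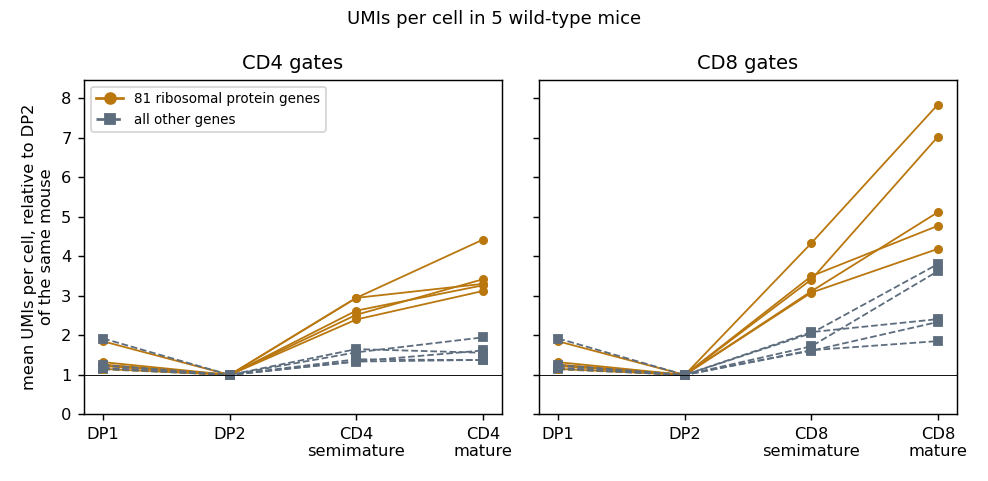
Mean UMIs per cell relative to DP2 of the same mouse (y axis, linear) over the CD4 gates and the CD8 gates (x axes) in the 5 wild-type mice, with solid lines for the 81 ribosomal protein genes and dashed lines for all other genes. The solid lines climb more steeply between DP2 and the semimature gates, 2.40 to 2.95-fold for CD4 and 3.08 to 4.34-fold for CD8.

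Gene by gene, the rise covered nearly all of the family. Of the 80 genes tested, 77 rose and 1 fell from DP2 to CD4 semimature, with a median log2 fold change of 0.74, in edgeR's quasi-likelihood test with the mouse as a block. Among all 9979 genes tested 22.3% rose and 21.2% fell, with a median near 0. From DP2 to CD8 semimature 78 rose and none fell, with the same median of 0.74, where 23.8% of all genes rose and 24.6% fell. The 2 comparisons share their DP2 sums, and 77 genes were called higher in both.

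Rps19, whose human counterpart is mutated in Diamond-Blackfan anemia, was at 1871, 2122, 2453, 1956 and 1719 CPM in DP2 of B6 replicates 1 to 5. In CD4 semimature cells it was at 4256, 4336, 4889, 4256 and 3698, so that no values of the 2 gates overlapped. Its log2 fold change was 1.17 ± 0.08 (SE) for CD4, with adjusted p = 1.3e-19 in edgeR's quasi-likelihood test, and 1.09 ± 0.08 for CD8. Rpl22l1, the paralog of Rpl22, went from 453, 514, 531, 370 and 352 in DP2 to 1157, 1165, 1215, 882 and 876 in CD4 semimature cells and to 1107, 1164, 1117, 966 and 916 in CD8 semimature cells. It had the highest fold change of the family in both lineages, 1.24 ± 0.08 and 1.25 ± 0.09. Rps20, a protein of the small subunit head, rose by 1.101 ± 0.08 toward CD4, and Rpl14, a large subunit protein, by 1.12 ± 0.07 toward CD8.

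Several members have known roles outside the ribosome or in disease. Rpl5 and Rpl11, which bind MDM2 and stabilise p53 when ribosome assembly fails, rose by 0.78 and 0.46 on the log2 scale toward CD4 and by 0.74 and 0.57 toward CD8. Rps6, the substrate of S6 kinase, rose by 0.73 and 0.84, and Rps3, which also acts in DNA repair, by 0.75 and 0.83. Rpl38, known for its part in translation of Hox mRNAs, rose by 0.68 and 0.72. The Diamond-Blackfan genes Rps26 and Rpl35a rose by 0.87 and 0.79 toward CD4 and by 0.95 and 0.79 toward CD8. Rpl22, which early αβ T cell development needs, rose by 0.78 and 0.76. All of these passed the test, with standard errors of 0.06 to 0.09.

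The smallest called rises toward CD4 included that of Rpl36al (0.27 ± 0.06), the intronless copy of Rpl36a, and the smallest toward CD8 were those of Rps27l (0.41 ± 0.09), Rps9 (0.42 ± 0.06) and Rpl7a (0.43 ± 0.06). The genes outside the common rise were Rps19bp1, Rpl7l1 and, toward CD4, Rps27l. Rps19bp1 was at 58, 58, 75, 55 and 45 CPM in DP2 and at 39, 36, 35, 42 and 38 in CD4 semimature cells, with no overlap. It fell by 0.23 ± 0.08 on the log2 scale (adjusted p = 0.014, edgeR's quasi-likelihood test). Rpl7l1 (0.04 toward CD4 and -0.03 toward CD8), Rps27l toward CD4 (0.09) and Rps19bp1 toward CD8 (-0.09) did not pass the test.

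**Figure D3:**
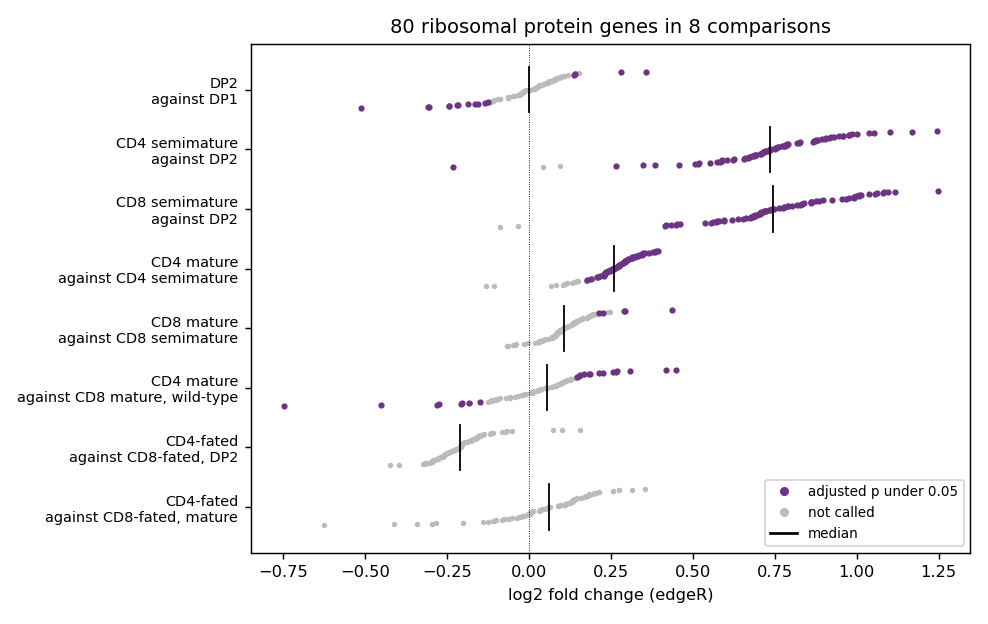
Log2 fold change (x axis, edgeR) of the 80 tested ribosomal protein genes, 1 point per gene, in 8 comparisons (rows), coloured where the adjusted p was under 0.05, with a line at the median. Nearly all points lie above 0 in both semimature steps (77 and 78 of 80 called higher), they centre on 0 in the DP2 step, and none is coloured between CD4-fated and CD8-fated mice.

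Between DP1 and DP2, which differ in surface CD69, 4 genes rose and 12 fell, with a median of 0.00, and 29.2% of all genes rose and 24.1% fell. Without experiment 3, which held the less distinct unsorted wild-type mice, 4 rose and 16 fell, where 27.3% of all genes rose and 23.2% fell. Rps19bp1 went from 41, 40, 42, 41 and 35 CPM in DP1 of B6 replicates 1 to 5 to 58, 58, 75, 55 and 45 in DP2, a rise of 0.36 ± 0.07 on the log2 scale. Rpl12, which contributes to the stalk base where translation factors bind, rose by 0.28 ± 0.07 and Rpl7l1 by 0.14 ± 0.06. Rps27l, a p53 target and paralog of Rps27, went from 332, 318, 409, 331 and 431 in DP1 to 239, 245, 196.7, 254 and 337 in DP2, lower in 5 of 5 wild-type mice. It fell by 0.51 ± 0.07 (adjusted p = 1.0e-08, edgeR's quasi-likelihood test), and Rpl28 by 0.31 ± 0.06.

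Cells of cycling-like RNA clusters (named by Mki67, Top2a and related genes) were 11.6 to 35.3% of the wild-type DP1 gates and 0.305 to 4.08% of the DP2 gates. Their weight in the summed UMIs can be larger. In B6 replicate 1 the 400 DP1 cells held 1887238 RNA UMIs, and the 350 outside these clusters held 1136203. With the cycling-like cells left out, chosen after seeing the data, 19 genes rose and 2 fell from DP1 to DP2. Of all genes 21.2% rose and 19.7% fell, so the number that rose was near the background. Of the 21 genes, Rpl12, Rpl7l1, Rps19bp1, Rpl7 and Rps14 were called in the same direction in both versions. Rps27l then had a log2 fold change of 0.08 and was not called. The calls of this step therefore differed when the cycling-like cells were left out. With those cells kept but every cell thinned to a lower number of UMIs, more genes also rose than fell. The part of the cycling-like cells themselves and that of their weight in the summed UMIs were not tested.

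The direction of the DP2 step in the summed share differed between mice. It was -0.38 ± 0.69 points in wild-type mice (n = 5, higher in 2), -0.96 ± 0.74 in CD4-fated mice (n = 5, higher in 0) and 1.33 ± 1.18 in CD8-fated mice (n = 6, higher in 5). F5 replicate 1, at -0.77, was the exception among the latter. Among cells outside the cycling-like clusters the step was 0.70 ± 0.32 points in wild-type mice, higher in 5 of 5. In those cells it was -0.49 ± 1.34 in CD4-fated mice, higher in 2 of 5, with both MHCI-/- mice now positive (1.03 and 0.19 points), and 1.37 ± 1.47 in CD8-fated mice, higher in 5 of 6. The test of the difference between CD4-fated and CD8-fated mice in this step, added after seeing the data, called none of the 80 genes and none of 8888 (0 in each direction, edgeR; 0 by DESeq2). At an unadjusted p under 0.05 it had 52 of the 80 and 340 of all genes, and the median difference was -0.21 on the log2 scale. With simulated differences of 0.5 the same fit recovered 6 of 100 genes drawn from all genes tested, and with differences of 1 it recovered 70 of 100. A shift of the observed size could thus be missed in such genes. How often it would be missed in the ribosomal protein genes was not tested.

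Genotypes also differed in the DP1 gate. The DP1 share was 16.1 to 17.98% in the 5 wild-type mice and 16.5 to 19.1% in the 4 MHC-deficient mice, which have diverse TCRs. It was 19.4 and 24.2% in OT-II, 21.3 and 23.4% in OT-I, 21.5 and 21.2% in F5, and 20.1 and 16.2% in AND. The second OT-II and OT-I values come from mice in which short ribosomal protein mRNAs were high. Of the TCR transgenic mice AND replicate 2, which stained weakly, was therefore the only one within the wild-type range. Markers of other cells moved with genotype in this gate. The summed level of the gamma-delta T markers was 349 to 579 CPM in AND, F5 and OT-I mice, 149 and 179 in OT-II and 133 to 221 in wild-type mice, with at most 2 of the 5 at 0 in a mouse. The mature single positive markers were at 209.9 to 525 CPM in AND, F5 and OT-I mice, 91.8 and 106 in OT-II and 94.4 to 204 in wild-type mice. The 8 markers of quiescent DP cells were at 1612 to 3448 in AND, F5 and OT-I mice, 4422 and 4799 in OT-II and 4365 to 8309 in wild-type mice. The part of these cells in the DP1 share was not tested. In OT-II, where those sums lay within the wild-type range or below it, other lists were high. The summed level of 10 double negative cell markers in DP1 was 385 and 632 CPM in OT-II mice and 61.5 to 211 in wild-type mice, with at most 1 of the 10 at 0 in OT-II. That of 4 erythroid markers was 617 and 706 against 0 to 149, with none at 0 in OT-II. It was not particular to OT-II, since in the 6 CD8-fated mice it had a median of 9.29 and a maximum of 2612 CPM. In wild-type DP1 the cycling-like cells had a higher share than the other cells of the gate in 5 of 5 mice (17.9 against 14.9%, 18.4 against 15.7%, 18.03 against 17.8%, 18.3 against 14.5% and 18.7 against 14.9% in B6 replicates 1 to 5). In OT-I and F5 mice it was the reverse, with 20.8 against 22.2% and 22.6 against 24.5% in OT-I and 19.0 against 21.8% and 20.1 against 22.1% in F5. In the OT-II mice the cycling-like cells were at 18.8 and 24.3% and the others at 19.6 and 24.2%, and in AND replicate 1 they were at 19.9 against 20.7%. The MHCI-/- mice (20.03 against 17.2% and 19.1 against 16.8%) and MHCII-/- replicate 1 (17.6 against 16.2%) had the wild-type order, and MHCII-/- replicate 2 had nearly equal shares (16.4 against 16.5%). Clusters came from the same RNA as the share, so these differences have no test.

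From semimature to mature cells the share rose further in the CD4 lineage. CD4 mature cells had 29.8, 31.5, 32.5, 29.1 and 28.7% in B6 replicates 1 to 5, each above the semimature value of the same mouse, and over all mice the step was 3.26 ± 1.66 points (n = 11, higher in 10). OT-II replicate 2 fell by 0.80 points, from 32.1 to 31.3%, with 18.75% of its CD4 mature gate in cycling-like clusters, and among its other cells the share was 32.3% in CD4 semimature and 33.6% in CD4 mature cells. Of the 80 genes 59 rose and none fell, with a median of 0.26, where 8.06% of all genes rose and 8.05% fell. The largest rises included those of Rps27rt (0.39 ± 0.09) and Rpl18 (0.39 ± 0.07), a large subunit protein, and the smallest called were those of Rpl7a (0.18 ± 0.06), Rps3a1 (0.19 ± 0.06) and Rpl29 (0.21 ± 0.06). Rps19 reached 5451, 5532, 5747, 5025 and 4092 CPM in CD4 mature cells, a step of 0.33 ± 0.08 on the log2 scale. Rpl22l1 changed by 0.08 ± 0.09 and did not pass the test. Without the mouse as a block 0 of the 80 were called.

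In the CD8 lineage the step was smaller. The mature share was 28.1, 31.5, 31.1, 27.2 and 26.9% in B6 replicates 1 to 5, which put replicates 4 and 5 below their semimature values, and over all mice the step was 1.73 ± 1.64 points (n = 9, higher in 7). Rps27l (0.44 ± 0.09), Rpl7a (0.29 ± 0.07), Rpl4 (0.29 ± 0.08), Rpl23a (0.23 ± 0.07) and Rpl14 (0.21 ± 0.07) rose, 5 of 80, none fell, and the median was 0.11, where 5.14% of all genes rose and 4.62% fell. The share of genes called was therefore close to that of all genes. Rps27l turned to -0.06 ± 0.07 without the cycling-like cells. In wild-type mice alone 40 of the 80 rose and none fell, where 8.81% of all genes rose and 4.97% fell. The difference between the CD4 and CD8 mature steps, tested after seeing the data, called 0 of the 80 (0.501% of all genes were higher and 0.701% lower), with a median of 0.14. At an unadjusted p under 0.05 it had 13 of the 80 and 1605 of all 9979 genes, a similar share. DESeq2 called 0 of the 80. The larger count in the CD4 lineage is thus not shown to differ from that in the CD8 lineage.

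The CD8 mature gate differed from the CD4 mature gate in its cells. Cycling-like cells were 11.02, 3.76, 12.96, 36.8 and 46.7% of it in B6 replicates 1 to 5, against 2.03, 1.94, 4.60, 6.37 and 9.63% of the CD4 mature gate. The summed level of 8 markers of quiescent DP cells had a wild-type median of 1556 CPM (1276 to 2168) in the CD8 mature gate and 75.7 (73.0 to 1054) in the CD4 mature gate, with none of the markers at 0, and this list includes Cd8b1, which CD8 cells express. In B6 replicates 3 to 5 the cycling-like cells of the CD8 mature gate had a share of 26.2, 25.3 and 25.8% and its other cells 32.7, 30.6 and 30.3%. Without the cycling-like cells the CD8 mature step was 3.02 points, higher in 9 of 9 mice, with B6 replicates 4 and 5 now at 2.57 and 2.89. In that version 4 genes were higher and 1 lower, where 2.95% of all genes were higher and 2.6% lower, and none of the 5 was called in the version with all cells.

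Within wild-type mice CD4 mature and CD8 mature cells could be compared in the same thymus. The share was higher in CD4 cells in 5 of 5 mice, by 1.73, 0.04, 1.46, 1.94 and 1.74 points. Without the cycling-like cells it was higher in 3 of 5 mice, by 0.28 points on average, and lower by 0.40 in B6 replicate 2 and by 0.16 in replicate 4. Of the 80 genes 14 were higher and 8 lower in CD4 mature cells, with a median of 0.05, where 14.9% of the 8443 genes tested were higher and 17% lower. The count is near that of all genes. All 22 called genes had the same sign in CD4-fated against CD8-fated mature cells, and so did 71 of all 80. None of them was called there. Shared signs were not counted over all genes, so these counts are not a result about the family. Cycling-like cells were also uneven in the lineage-restricted mice. They were 6.2 to 33.5% of the CD8 mature gates of CD8-fated mice and 0.434 to 18.75% of the CD4 mature gates of CD4-fated mice.

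The Rps27 family carried some of the largest differences, that of Rps27l above all. Rps27l was at 192, 180, 221, 268 and 384 CPM in CD4 mature cells of B6 replicates 1 to 5 and at 359, 276, 350, 480 and 670 in CD8 mature cells, lower in CD4 cells in 5 of 5 mice. Its log2 fold change was -0.75 ± 0.08 (adjusted p = 6.9e-06, edgeR's quasi-likelihood test), and it was -0.26 ± 0.08 (adjusted p = 0.015) without the cycling-like cells. In the lineage-restricted mice it was at 154 and 191 (AND), 218 and 187 (MHCI-/-) and 281 and 509 (OT-II) against 271 and 505 (F5), 276 and 317 (MHCII-/-) and 354 and 564 (OT-I), a difference of -0.63 ± 0.23 that did not pass the test (adjusted p = 0.13). Rps27 itself was 0.42 ± 0.06 higher in CD4 cells and Rps27rt 0.45 ± 0.09 higher. Counting cannot fully separate this near copy from Rps27.

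Rps2 was 0.28 ± 0.06 lower in CD4 cells on the log2 scale, and Rps29 was 0.31 ± 0.05 higher. Also higher in CD4 mature cells were Rps7, Rps19, Rps20, Rps21, Rps24, Rpl12, Rpl13a, Rpl19, Rpl30, Rpl34 and Rpl37a, and also lower were Rpl4, Rpl7a, Rpl14, Rpl23a and Rpl41. Without the cycling-like cells 9 were higher and 14 lower, where 8.77% of all genes were higher and 9.75% lower. Of these, 6 were shared with the 14 (Rpl12, Rpl30, Rps19, Rps27, Rps27rt and Rps29) and 6 with the 8, among them Rpl4, Rpl41, Rpl7a, Rps2 and Rps27l.

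Between CD4-fated and CD8-fated mice no ribosomal protein gene was called at any stage. With the replicate number as a block, 2 genes were lower at the semimature stage, Rps27l among them (-0.43 ± 0.10, adjusted p = 0.014, edgeR's quasi-likelihood test), where 11.2% of all genes were lower. The share differed by -0.69 points in DP1, -2.53 in DP2, 0.35 in semimature and 1.24 in mature cells (CD4-fated minus CD8-fated, averaged within genotype pairs), against SDs over mice of 2.73, 2.59, 1.98 and 1.85 points. At the semimature stage AND had no F5 partner, and the plain difference of the group means was -0.72. Leaving out 1 mouse gave -1.50 to 0.11 in DP1, above 0 only without OT-II replicate 1, and -0.88 to 1.57 at the semimature stage, below 0 without OT-II replicate 2, OT-I replicate 1 or MHCI-/- replicate 1. The medians of the 80 log2 fold changes were -0.04, -0.21, 0.01 and 0.06. Of all genes 0.0217, 0.0125, 4.99 and 2.51% were called higher and 0, 0.0499, 5.18 and 2.82% lower at the 4 stages. At an unadjusted p under 0.05 there were 0, 0, 1 and 3 of the 80. Over all genes there were 199 of 9202, 401 of 8014, 2304 of 9382 and 2075 of 8999. DESeq2 called 0, 0 and 0 of the 80 and, in mature cells, 2 higher, and its counts over all genes are not given here. In simulated data with differences of 0.5 the same fits recovered 41, 34, 21 and 44 of 100 genes drawn from all genes tested. Differences of that size could thus be missed in such genes, and how often in the ribosomal protein genes was not tested. Without the 3 mice of experiment 3 in which short ribosomal protein mRNAs were high, 2 genes were lower in semimature cells, where 9.88% of all genes were lower. In mature cells 4 were then higher and 1 lower, where 6.31% of all genes were higher and 7.55% lower.

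Over the gates the makeup of the family was stable compared with its total, but between libraries it was not. Small subunit genes held 44.9 to 50.2% of the family's UMIs over all sums used. In DP1, 27 genes differed more than 2-fold in level between B6 replicates 5 and 4, whose summed shares were 16.8 and 16.2%. In the means of the wild-type mice, 74 of 80 genes kept a share of the family's UMIs that varied under 1.5-fold over the 6 gates, with a median of 1.22-fold. Of the 6 exceptions 5 were non-core genes or paralogs: Rps19bp1 (3.09-fold), Rps27l (2.61), Rpl7l1 (2.28), Rpl22l1 (1.66) and Rpl36al (1.54).

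Among the paralog pairs, Rpl22l1 gained on Rpl22. Its UMIs were 29.5 ± 2.8% (SD, n = 5 wild-type mice) of those of Rpl22 in DP1 and 35.5 ± 6.0% in DP2, and 52.5 ± 7.7% in CD4 semimature and 45.5 ± 6.9% in CD4 mature cells. In CD8 semimature and mature cells it was at 52.1 and 46.8%. Rpl36al lost ground to Rpl36a, from 58.2% in DP1 and 62.8% in DP2 to 34.7% in CD4 semimature and 35.5% in CD8 semimature cells. Rps27l stood at 9.2% of Rps27 in DP1, 6.0% in DP2, 3.5% in CD4 mature and 8.1% (4.04 to 14.9%) in CD8 mature cells. The Rps27l ratios include the cycling-like cells, without which its calls in the DP2 and CD8 mature steps were lost. These ratios compare genes whose counts are affected unequally in experiment 3, and B6 replicate 5 was the lowest or highest in several of them.

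**Figure D4:**
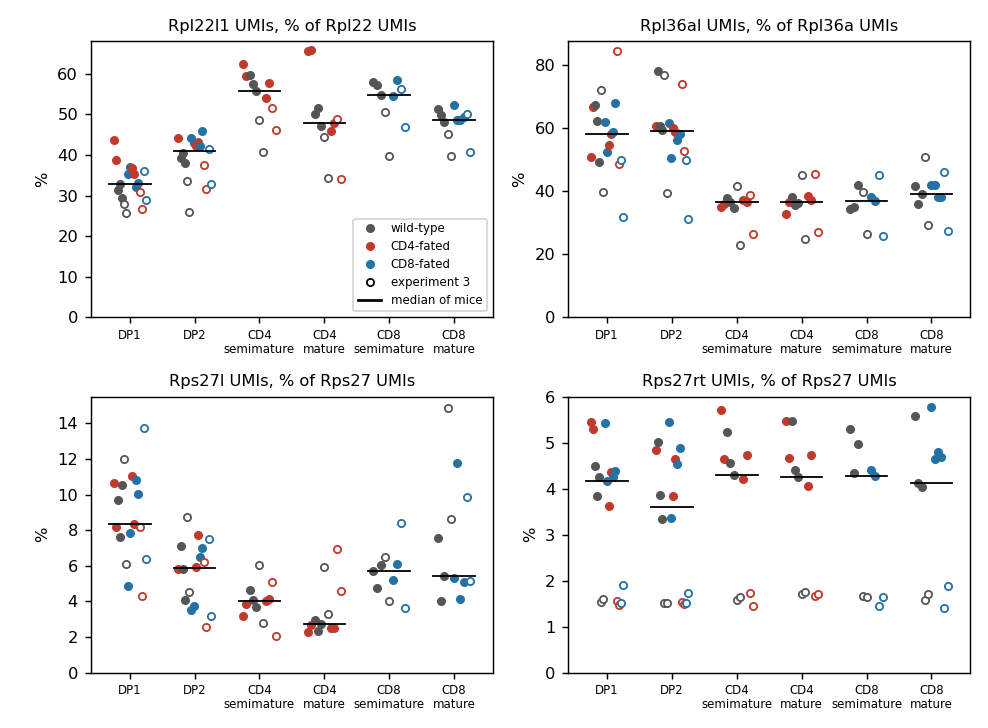
UMIs of a paralog as a percent of those of its partner (y axes) by gate (x axes), 1 point per mouse coloured by lineage, with open points for experiment 3 and lines at the median of all mice, for Rpl22l1, Rpl36al, Rps27l and Rps27rt. Rpl22l1 is higher and Rpl36al lower relative to the partner in single positive than in DP gates, and the open points of Rps27rt lie apart from the filled ones in every gate.

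The 6 ribosomal protein genes that the name misses were followed beside the family. All 6 rose from DP2 to CD4 semimature (median 0.79 on the log2 scale), where 22.3% of all genes rose, and to CD8 semimature (0.81), where 23.8% did. To CD4 mature 4 rose and none fell, where 8.06% of all genes rose. Rpsa, the laminin receptor precursor of the small subunit, rose by 0.84 and 0.83 toward CD4 and CD8, and the stalk protein gene Rplp1 by 0.96 and 0.84. Of 22 genes of translation factors and other TOP mRNAs, 19 rose and none fell toward CD4 semimature (median 0.38) and 20 rose and none fell toward CD8 (0.44), beside the same 22.3 and 23.8% of all genes. The elongation factor genes Eef1b2 (0.84 and 0.87) and Eef1a1 (0.72 and 0.65) were among them, and so was Npm1, which encodes a nucleolar chaperone (0.53 and 0.89). In the DP2 step 3 of the 22 rose and 7 fell, where 29.2% of all genes rose and 24.1% fell, with Nap1l1, a histone chaperone gene, lowest at -1.15 ± 0.13. With the cycling-like cells left out 7 rose and 5 fell (median 0.02), where 21.2% of all genes rose and 19.7% fell.

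Genes for ribosome assembly were followed as a list of 40, and differences between the lists were not tested. From DP1 to DP2 29 rose and 1 fell (median 0.39), where 29.2% of all genes rose and 24.1% fell, and without the cycling-like cells 36 rose and 1 fell. From DP2 to CD4 semimature 11 rose and 1 fell (median 0.14), where 22.3% of all genes rose and 21.2% fell. Without the cycling-like cells 19 rose and 1 fell, where 24.2% of all genes rose. To CD8 semimature 34 rose and 1 fell (0.49), where 23.8% of all genes rose and 24.6% fell. In wild-type mature cells 23 of the 40 were lower and none higher in CD4 than in CD8 cells (median -0.43), where 17% of all genes were lower and 14.9% higher. Without the cycling-like cells, which were more frequent in the CD8 mature gate, 11 were lower and none higher (median -0.26), where 9.75% of all genes were lower. Among the 23 were Ncl (-0.93 ± 0.10), encoding nucleolin, and Gnl3 (-0.89 ± 0.13), encoding nucleostemin. Polr1b, a subunit of the polymerase that transcribes ribosomal RNA, rose in each of the first steps (0.77 in DP2, 0.70 toward CD4 and 0.99 toward CD8). Of 77 genes of mitochondrial ribosomal proteins, 4 rose and 32 fell in DP2 (median -0.09). Without the cycling-like cells 19 of 76 rose and 9 fell (median 0.08), where 21.2% of all genes rose and 19.7% fell. Fewer thus fell without those cells, and the number that rose was near the background. Toward CD4 16 of 77 rose, near the 22.3% of all genes, and 3 fell, and toward CD8 35 rose and 1 fell. In wild-type mature cells 38 of 76 were lower and 1 higher in CD4 cells, and without the cycling-like cells 14 of 74 were lower and 1 higher.

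Of 16 regulators of ribosome synthesis tested, 4 rose and 2 fell in DP2, 4 rose and 3 fell toward CD4, and 3 rose and 4 fell toward CD8, where 21.2 to 29.2% of all genes were called in each direction. Myc, which drives ribosome production, rose by 0.38 ± 0.14 in DP2, 0.59 ± 0.15 toward CD4 and 1.23 ± 0.16 toward CD8, and Mxi1, an antagonist of MYC, fell by 0.47, 0.58 and 1.04 on the log2 scale. Sesn3, an inhibitor of mTORC1 signalling, rose by 0.92, 1.04 and 0.89. Measures of RNA quality moved too: of 13 mitochondrial transcripts 11 rose and none fell toward CD4 and 12 rose and 1 fell toward CD8, and Malat1, a nuclear RNA, fell by 0.30 ± 0.09 and 0.57 ± 0.09. With mitochondrial transcripts and Malat1 taken out of the total the wild-type share was 16.7 to 20.3% in DP2 and 27.3 to 31.0% in CD4 semimature cells. The part of RNA quality in the result was not tested.

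**Figure D5:**
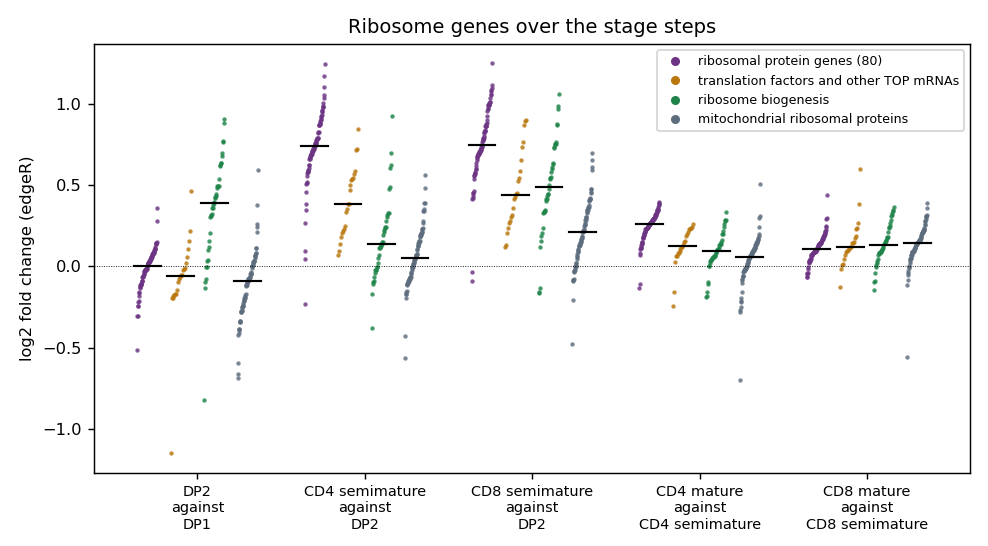
Log2 fold change (y axis, edgeR) of each gene of 4 lists in the 5 stage steps (x axis), with a line at the median of each list. Ribosome biogenesis genes have a median of 0.39 in the DP2 step, where the ribosomal protein genes are at 0.00, and of 0.14 toward CD4 semimature, where the ribosomal protein genes are at 0.74.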

How the data were processed

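The authors prepared 3′ single-cell RNA and antibody-tag libraries (10x Genomics, CITE-seq) and deposited raw UMI counts per barcode and lane. Per the labels, Cell Ranger 3.1.0 and mm10 (GRCm38) were used, while the file headers of experiments 1 and 2 name Cell Ranger 3.0.2. UMIs mapping to several genes can be lost or split, which touches these genes more than most. The members, gene lists and tests were chosen with earlier results of these data known. Pooled matrices of the series were not used.

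Barcodes were kept with at most 15% mitochondrial UMIs, at least 200 genes, 1000 to 10000 antibody UMIs and at least 70 antibodies detected, and 3.85% of the remaining cells were removed as simulated-neighbour doublets (0.8% per 1000 barcodes). Surface gates used CD4, CD8a, CD69 and CD127, centred log-ratio scaled over 111 antibodies, with an Otsu threshold per experiment. The TCRβ antibody was not used. RNA counts were summed per mouse and gate (at least 20 cells), with the 2 lanes of an unsorted wild-type mouse pooled.

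Sums were tested with edgeR 4.0.16 (R 4.3.3; quasi-likelihood, TMM, filterByExpr), with Benjamini-Hochberg adjustment over all genes tested and a threshold of 0.05. Stage steps came from 1 fit with the mouse as a block, the wild-type mature comparison from its own fit with the mouse as a block, and CD4-fated against CD8-fated mice from 1 fit per stage with the genotype pair (AND with F5, MHCI-/- with MHCII-/-, OT-II with OT-I) as a covariate. DESeq2 1.42.0 was an alternative. Rpl39l failed the filter on low counts, which left 80 genes. The summed share was described with no test. Each fit was tested on simulated counts.

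RNA clusters (2000 variable genes, 30 components, 20 neighbours, resolution 1, leidenalg 0.10.2) served only to mark cycling-like cells and classes. The text names the 5 most and 5 least abundant members, the 3 largest and 3 smallest called changes of each comparison, paralog pairs, members with known roles and those whose share of the family varied most. Rpl15, Rpl27, Rps18, Rps10 and the remaining genes named were chosen after their values were seen. Some genes that this rule names are not reported here.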

Additional observations from a re-analysis of the deposited data

Results flagged for a closer look

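Of 112 groups of mice checked for a value far from the others, 17 held one, where the nominal rate of the rule is about 1 in 20. The groups share mice and genes and are not independent. The share of RNA in ribosomal protein genes was low in CD8 semimature cells of B6 replicate 1, at 25.6%. The ribosomal protein UMIs per cell were low in B6 replicate 5, at 276 in DP2 and 697 in CD4 semimature cells, and high in DP2 of OT-I replicate 1, at 1750.

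The other 13 are ratios of paralogs, and 12 of them lie in B6 replicate 5, OT-I replicate 2 or OT-II replicate 2, the mice of experiment 3 in which short ribosomal protein mRNAs were high. Rpl7l1 as a percent of Rpl7 was far from the other wild-type mice in B6 replicate 5 in every gate, with 11.8% in DP1, 13.5% in DP2, 8.85% in CD4 semimature, 8.66% in CD4 mature, 6.27% in CD8 semimature and 11.4% in CD8 mature cells. The same ratio stood apart in OT-II replicate 2 (5.15% in CD4 semimature cells) and in OT-I replicate 2 (7.03% in CD8 semimature and 6.75% in CD8 mature cells). Rpl22l1 as a percent of Rpl22 was low in OT-I replicate 2, at 32.8% in DP2 and 40.7% in CD8 mature cells. Rpl36al was at 26.4% of Rpl36a in CD4 semimature cells of OT-II replicate 2. Outside these mice, Rps27l was at 5.95% of Rps27 in CD4 mature cells of B6 replicate 4.

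The change in share from DP1 to DP2 had opposite signs in matched genotypes. It was -0.84 and -0.86 points in the MHCI-/- mice and 1.31 and 2.47 in the MHCII-/- mice, and it was 1.93 and 2.19 in the OT-I mice and -0.03 and -0.97 in the OT-II mice. The difference in the summed share was not tested. Gene by gene, the test of this difference over the 11 lineage-restricted mice with both gates called 0 of 80 genes. Without the cycling-like cells the MHCI-/- mice were at 1.03 and 0.19 points and the MHCII-/- mice at 2.28 and 2.48, so their signs no longer differed, while the OT-I (2.22 and 2.15) and OT-II mice (-0.17 and -1.01) still did.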

How the results depend on the processing

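Counts below are of the 80 ribosomal protein genes, higher/lower where both are given. The share of all genes called also moves with the setting. In the DP2 step it was 29.2% higher and 24.1% lower with all cells, and 21.2 and 19.7% without the cycling-like cells. That share is not printed for each setting, so a change in these counts is not by itself a change in the family. Of the 470 values and counts tried under other settings, 414 stayed within 1.5 times the count or 1 SD and 56 did not. Of the tests of single named genes 927 kept their call, 107 lost it and 2 reversed.

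From DP1 to DP2 the calls were 9 higher with library-size scaling, which moves the median of all genes by -0.23 and -0.25 in the semimature steps, 2/19 with DESeq2, 2 higher without the low-count filter, with scaling on other genes, with doublets kept or in wild-type mice alone, 2/20 with gate thresholds lowered by 0.25, 2/28 with at most 5% mitochondrial UMIs, 16/3 with cells thinned to 1000 UMIs, 1/2 without the mouse block and 19/2 without cycling-like cells. Leaving out 1 mouse gave 2 to 5 higher and 7 to 19 lower, with 7 without AND replicate 1 or MHCI-/- replicate 1 and 19 without OT-I replicate 1.

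From DP2 to CD4 semimature, 2 were lower with library-size scaling and 0 with lowered thresholds, at most 5% mitochondrial UMIs, thinning, or without B6 replicate 3 (0 to 1 over single mice). Without the mouse block the share rose by 7.94 points. To CD8 semimature, 2 were lower with library-size scaling. To CD4 mature, 1 was lower with library-size scaling and 0 were higher without the block.

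To CD8 mature, the number higher was 8 with DESeq2, 15 and 16 with lowered and raised thresholds, 2 when thinned or without experiment 3, 40 in wild-type mice, 0 without the block and 3 without the later mice of experiment 3, and 1 was lower without cycling-like cells. Leaving out 1 mouse gave 3 (any B6 mouse or MHCII-/- replicate 2) to 8 (F5 replicate 1 or OT-I replicate 1). The mature-step difference had 1 lower with raised thresholds.

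CD4 against CD8 mature cells in wild-type mice gave 7/4 with DESeq2 or sorted mice alone, 25 higher with lowered thresholds, 8/5 when thinned (share 0.567 points higher), 9/14 without cycling-like cells (0.283 points), 5 lower without the later mouse of experiment 3, and 8 to 22 higher and 4 to 7 lower over single mice (8 without replicate 1, 3 or 4 and 22 without replicate 2). Rps27l turned to 0.0848 in the DP2 step and to -0.0619 in the CD8 mature step without cycling-like cells.

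CD4-fated against CD8-fated mature cells gave 2 higher with DESeq2, 1 lower without the low-count filter, with raised thresholds or without OT-II replicate 2 (0 to 1 over single mice), 4/1 without the later mice of experiment 3 and 4/1 without OT-I and OT-II. At the semimature stage 2 were lower without the later mice of experiment 3. The replicate numbers of paired genotypes were not taken to pair the mice, since not every correlation of same-numbered deviations was over 0.1: it was -0.12 (AND and F5), 0.471 (MHC-deficient) and 0.77 (OT) in DP1 and -0.043 (MHC-deficient) and 0.775 (OT) in DP2. AND and F5 replicates of the same number were of the same experiment. With the replicate block 2 were lower at the semimature stage and 0 were called elsewhere. The cause of these changes was not tested. Settings without the cycling-like cells, without AND and F5, with sorted wild-type mice alone and without the later mice of experiment 3 were chosen after seeing the data.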

Other observations

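RNA clusters give the share in cells that the surface gates do not single out. It was 31.2% (median, 27.8 to 31.5% over 6 mice) in CD8 single positive-like clusters, 30.1% (23.8 to 32.7%, 11 mice) in mature single positive-like, 26.9% (23.9 to 29.8%, 11 mice) in regulatory T-like, 27.1% (25.2 to 29.3%, 6 mice) in γδ T-like and 25.3 to 33.9% over 4 mice in double negative-like clusters. Cycling-like cells were at 21.2% (19.2 to 27.7%, 17 mice), signalled DP-like at 16.9% (13.8 to 18.4%, 14 mice), quiescent DP-like at 16.02% (8.99 to 19.97%, 15 mice) and myeloid-like at 18.1% (13.7 to 24.9%, 12 mice). The 8.99% came from only 20 cells of B6 replicate 5. Clusters came from the same RNA and separated partly by experiment, and 30656 cells stayed unnamed, so these values are a description.

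Cells with CD4, CD8a, CD69 and CD127 all on the surface lie between DP2 and the semimature gates by protein. Their share was 16.4 to 22.7% (median 18.3%) in the 5 wild-type mice and 16.4 to 27.4% over the 16 mice with at least 20 such cells.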
